A study of Mus musculus with 20 samples.

Results

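Collagens are secreted or membrane-bound proteins built from 3 chains wound into a triple helix, and they form the fibrils, sheets and filaments of the extracellular matrix. The collagen genes were taken as every protein-coding gene of the deposited gene map whose symbol reads Col, a number, a and a number, with no use of expression values. This gave 44 of the 48709 genes in the count table, and 43 of them were among the 19797 genes that passed the filter on low counts over the 20 samples. The exception was Col10a1, a short-chain collagen of growing cartilage, which had between 0 and 9 reads.

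The samples were the hippocampus of adult offspring (C57BL/6 in the labels, C57BL/6J in the study's methods) whose dams inhaled nPM, re-aerosolized nanosized particulate matter from urban air, or filtered air while pregnant. The exposure ran 5 h/day on 3 days/week from gestational day 2 until birth at a concentration of 300, which the labels write in mg/m3 and the study's methods in μg/m3. Each sex had 5 nPM offspring and 5 controls whose dams breathed filtered air, which made 4 groups and 20 samples. Females were 17.71 to 18.29 weeks old and males 18.57 to 19.14 weeks, so sex and age cannot be told apart. The study's methods also describe injections of EdU, a DNA label for dividing cells, for male mice, and whether females received it is not clear from them. If it went to males alone, it cannot be told apart from sex either. Animals were perfused with saline and the hippocampus of the right hemisphere was sequenced after removal of ribosomal RNA. The study's methods describe offspring from 5 litters per exposure group, fewer than the samples of each exposure, so some samples must be littermates. The labels do not tie samples to litters, so the p-values below measure the spread between these samples and treat littermates as independent. They may therefore be too small. Each sample held 19092067 to 38663408 reads in genes.

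In brain, type IV collagen chains form the basement membrane that surrounds every vessel, while the fibrillar collagens I and III are made mostly by fibroblasts of the meninges and of larger vessels. Fibrillar chains (I, II, III, V, XI, XXIV, XXVII) assemble into rope-like fibrils, network chains (IV, VIII, X) into sheets, and type VI chains into beaded filaments. Fibril-associated chains (IX, XII, XIV, XVI, XIX, XX, XXII) sit on fibrils, and the transmembrane collagens XIII, XVII, XXIII and XXV are anchored in the cell membrane. Col25a1, also known as CLAC-P, is a transmembrane collagen of neurons, and Col19a1 is made by a subset of hippocampal interneurons.

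The level of each gene was expressed per length as RPKM, for comparison between genes. RPKM is reads scaled to the deposited gene length and to the total counts of the sample. Whether the deposited lengths fit the transcripts present in these samples was not tested, so levels of different genes compare only roughly. Col25a1 had the highest mean level, 7.62 ± 1.63 RPKM (SD, n = 20), which was 13.4% of the summed level of the 44 genes. It was followed by the fibril-associated Col9a3 at 6.16 ± 5.63 RPKM, the vessel basement membrane chains Col4a1 at 5.05 ± 1.32 and Col4a2 at 4.47 ± 1.30 RPKM, and Col19a1 at 4.20 ± 0.863 RPKM. The order among these 5 was not fixed: Col25a1 had the highest level in 11 samples, Col9a3 in 6 and Col4a1 in 3. The short-chain network collagens Col8a1 and Col8a2 followed with means of 3.18 ± 4.43 and 3.09 ± 3.87 RPKM, SDs larger than the means. Col11a2, a fibrillar chain, came next at 2.44 ± 0.578 RPKM. In all, 15 genes had a mean level over 1 RPKM and 41 over 0.1 RPKM. The lowest were Col2a1, the main collagen of cartilage, at 0.0954 RPKM, Col6a6 at 0.0505 RPKM and Col10a1 at 0.0300 RPKM.

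Each class held genes of unlike level. Among the 11 fibrillar genes the mean level ran from 0.0954 RPKM (Col2a1) to 2.44 RPKM (Col11a2), with Col11a1 at 1.49, Col1a2 at 1.29 and Col1a1 at 0.945 RPKM. Col5a2, Col5a1, Col3a1, Col5a3, Col27a1 and Col24a1 lay between 0.153 and 0.827 RPKM. In type IV, Col4a5 at 1.24 RPKM, Col4a6 at 0.323, Col4a4 at 0.293 and Col4a3 at 0.239 RPKM stood well below the common vessel chains. The 6 type VI genes ran from 0.0505 RPKM (Col6a6) to 2.11 RPKM (Col6a1), with Col6a3 at 1.04 RPKM and Col6a2, Col6a4 and Col6a5 between. Among the 9 fibril-associated genes, Col16a1 (1.09 RPKM) and Col12a1 (0.991 RPKM) followed Col9a3 and Col19a1, and Col9a2, Col20a1, Col14a1, Col9a1 and Col22a1 lay between 0.193 and 0.840 RPKM. The transmembrane Col23a1 was at 1.26 RPKM, with Col13a1 at 0.188 and Col17a1 at 0.163 RPKM. Col18a1 (0.71 RPKM) and Col15a1 (0.574 RPKM) are the multiplexins, collagens of basement membrane zones. Col26a1, Col28a1 and Col7a1 were at 0.301, 0.122 and 0.150 RPKM.

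**Figure D1:**
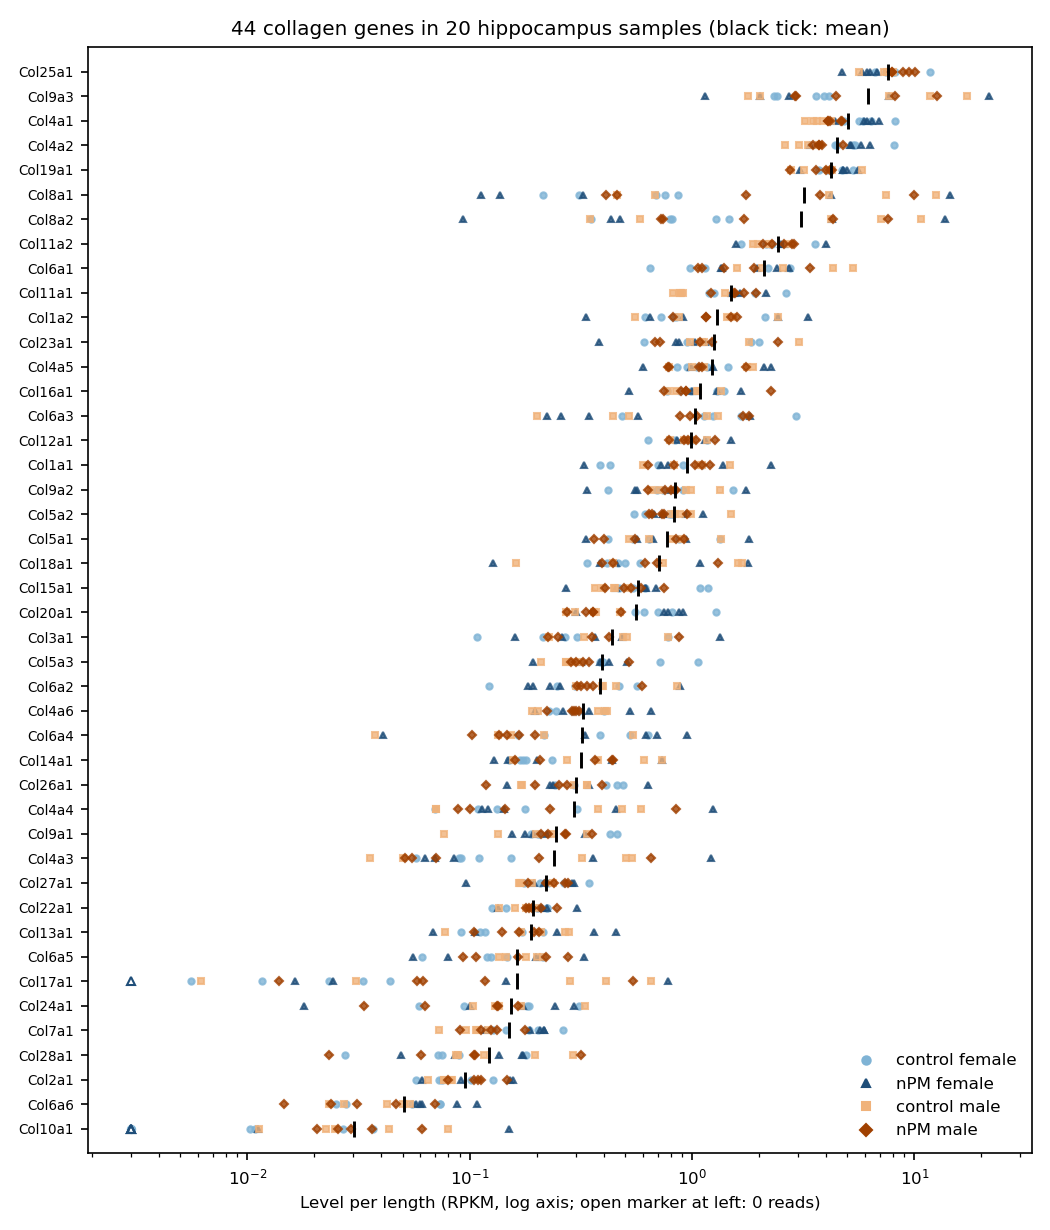
Level of each of the 44 collagen genes in every sample (RPKM, log axis, 1 symbol a sample, shaped by group, with the mean as a black tick). Col8a1, Col8a2, Col4a3, Col4a4 and Col17a1 spread over a wide range, while Col4a1 and Col25a1 keep a narrow one; Col17a1 was listed at 0 reads in 1 sample and Col10a1 in 4.

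Collagen genes varied between samples of the same group more than most genes did. The within-group SD of log2 CPM (counts scaled to the total of the sample) had a median of 0.63 over the 43 tested collagens and 0.26 over all 19797 tested genes, and 41 of the 43 lay above the latter. The largest within-group SDs were those of Col17a1 (2.19), Col8a1 (2.15), Col8a2 (1.97), Col4a3 (1.53) and Col4a4 (1.30). The smallest were those of Col4a1 (0.21) and Col25a1 (0.22), both below the median of all tested genes. Median counts, in the order given, were 7, 99.5, 134.5, 26 and 44.5 for the genes of largest SD. They were 1097.5 for Col4a1 and 2999.5 for Col25a1. The SD of log2 CPM also grows where reads are few, and the comparison with all genes was not matched for level. The part of read number in the larger spread of collagens was not tested. A bulk sample does not separate fewer cells of a type from less RNA per cell, and this holds for every level given here.

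The collagens with the largest spread ran along with markers of the choroid plexus, the secretory epithelium of the ventricle that lies against the hippocampus. A list of 15 choroid plexus genes, among them Ttr, Folr1, Kl, Aqp1 and Otx2, had reads in every sample. Their summed level ran from 256 to 14646 CPM. It was 299.5 to 1021 CPM in control females, 284 to 14646 in nPM females, 256 to 12344 in control males and 383 to 9179 in nPM males. The widest gap lay between 1622 and 3761 CPM, with 13 samples below it and 7 above. The 7 were 2 nPM females, 3 control males and 2 nPM males.

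Col8a1, one of the chains of type VIII collagen, ranged from 0.113 to 1.74 RPKM in the 13 samples below the gap and from 3.77 to 14.4 RPKM in the 7 above it. Its sister chain Col8a2 ranged from 0.0933 to 1.71 RPKM below and from 4.23 to 13.7 above. Col9a3 ranged from 1.14 to 4.44 RPKM below and from 7.71 to 21.7 above. The ranges did not overlap for any of these. For Col4a3 they were 0.0356 to 0.153 and 0.206 to 1.22 RPKM, and for the transmembrane Col17a1 0 to 0.0615 and 0.117 to 0.777 RPKM. For Col4a4 they overlapped, at 0.0698 to 0.304 and 0.230 to 1.24 RPKM. These 6 genes held 4.27% to 15.7% of the summed collagen level in the samples below the gap and 23.7% to 52.2% in those above. They are the collagens with the highest r with the choroid plexus list in these same samples (given below). Their separation along that list is therefore not separate evidence. How many of all genes, or of the other collagens, separate in this way was not counted.

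The log2 CPM of each of the 43 tested collagens was correlated with the score of 15 cell type and region marker lists over the 20 samples, 645 relations in all, with permutation p-values adjusted over all of them (Benjamini-Hochberg). No list contained a collagen. The adjusted p was under 0.05 in 42 relations, which involved 26 genes, and in 17 of them also after the 2 samples farthest from the median score were left out. The largest unadjusted permutation p among the 42 was 0.00323, and the share of the other tested genes with a p that low or lower is given beside each list as its background. The choroid plexus list led with 12 collagens (27.9%, against a background of 7.11%), 11 of them positive. Col8a1 had r = 0.96 (Spearman rho = 0.91), Col8a2 r = 0.96 (rho = 0.97), Col9a3 r = 0.95 (rho = 0.92), Col17a1 r = 0.94 (rho = 0.88), Col4a3 r = 0.94 (rho = 0.87) and Col4a4 r = 0.92 (rho = 0.88). Col14a1, a fibril-associated collagen, followed with r = 0.90 (rho = 0.82) and Col18a1, a basement membrane collagen whose end is endostatin, with r = 0.84 (rho = 0.76). Each of these 8 had the permutation p of 1e-05, the smallest that 100000 permutations can give (adjusted p = 0.000537), and each kept an adjusted p under 0.05 without the 2 farthest samples, with r from 0.78 to 0.95. Col4a5, Col13a1 and Col1a2 (r = 0.76, 0.67 and 0.63) and the negative Col24a1 (r = -0.62) did not.

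Within the 13 samples below the gap, Col8a2 still followed the list (r = 0.78, rho = 0.91, permutation p = 0.00099, adjusted over 43 genes 0.0426). Col8a1 had r = 0.75 (adjusted p = 0.0735) and Col9a3 r = 0.66 (adjusted p = 0.109) there. Col4a4 (r = 0.67), Col6a3 (r = 0.66) and Col17a1 (r = 0.66) were as high, each at adjusted p = 0.109. Within the 7 samples above the gap, Col8a1, Col8a2, Col9a3 and Col17a1 had r of 0.98, 0.98, 0.98 and 0.93, with exact permutation p from 0.000198 to 0.00278 and adjusted p from 0.00853 to 0.0299. Col19a1 had r = -0.94 there (adjusted p = 0.0717). The share of all genes was not counted on either side of the gap. Col1a2 had r = 0.06 below the gap and r = 0.16 above it.

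**Figure D2:**
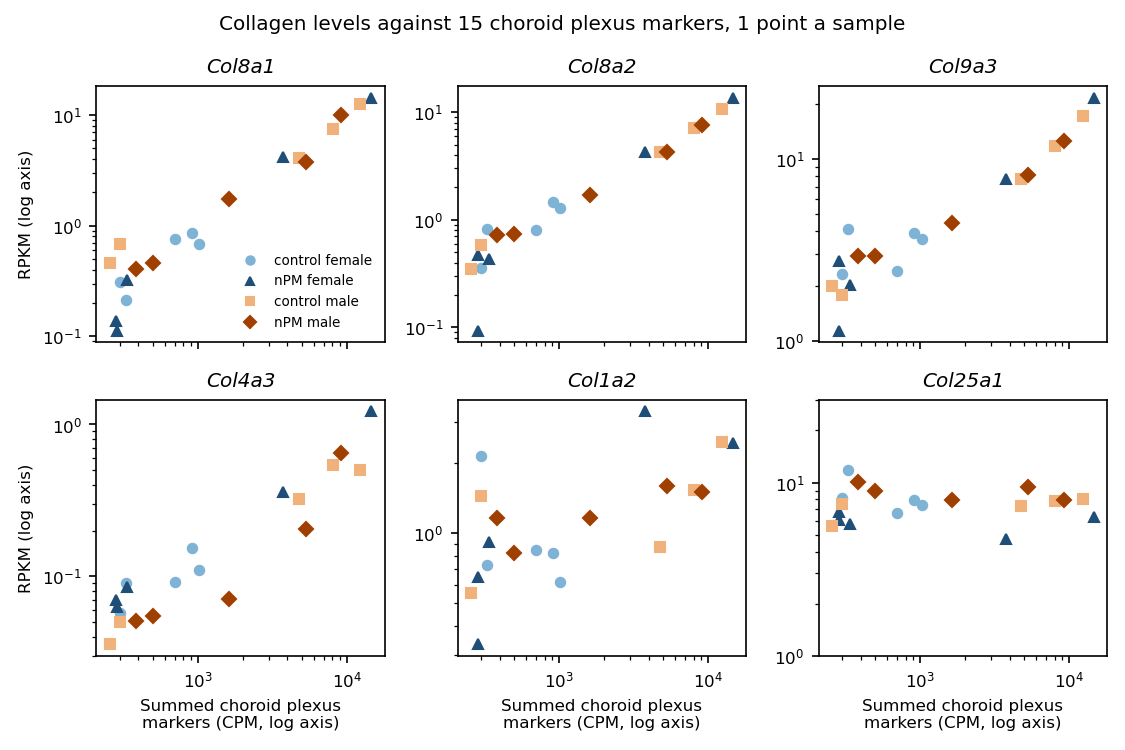
Level of 6 collagen genes (RPKM, log axis) against the summed level of 15 choroid plexus markers (CPM, log axis) in the 20 samples, shaped by group. Col8a1, Col8a2, Col9a3 and Col4a3 climb with the markers from 256 to 14646 CPM, and Col1a2 (r = 0.63) scatters widely, while Col25a1 stays between 4.75 and 11.8 RPKM.

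The fibroblast list (meninges and perivascular space) had 10 collagens at adjusted p under 0.05 (23.3%, against a background of 1.88%), all positive. They were headed by the 2 chains of type I collagen, Col1a2 (r = 0.90, rho = 0.90) and Col1a1 (r = 0.85, rho = 0.83), then Col9a2 (r = 0.82), Col4a6 (r = 0.81) and Col3a1 (r = 0.80), the chain of type III collagen. The other 5 were Col4a5, Col14a1, Col13a1, Col6a2 and Col18a1, and 6 of the 10 passed without the 2 farthest samples. The choroid plexus and fibroblast scores were themselves related (r = 0.51, rho = 0.48, permutation p = 0.022), and 5 collagens were called with both lists.

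The list of CA3 pyramidal cell genes had 8 collagens (18.6%, against 6.94%). Col11a1 (r = 0.74), Col11a2 (r = 0.63) and Col7a1 (r = 0.63) were positive, and Col6a2 (r = -0.79), Col23a1 (r = -0.74), Col6a1 (r = -0.72), Col5a1 (r = -0.70) and Col28a1 (r = -0.69) negative. Col6a2 alone kept an adjusted p under 0.05 without the 2 farthest samples. The neocortex list had 3 (6.98%, against 2.58%), led by Col24a1 (r = 0.80, adjusted p = 0.00184), which was at adjusted p = 0.0992 without the 2 farthest samples. The endothelial list had 1 (2.33%, against 8.92%), Col20a1 (r = 0.69, adjusted p = 0.0127). The vessel chain Col4a1 had its largest r with this list too, at r = 0.62 (rho = 0.65), just over the threshold (adjusted p = 0.0539). With the group means subtracted, Col20a1 had r = 0.45 (adjusted p = 0.186) with that list, but more collagens were called with it (counted at the end). The mural list had 2 (4.65%, against 1.36%), led by Col4a6 (r = 0.64), and the myelinating oligodendrocyte list 1 (2.33%, against 5.04%), Col19a1 (r = -0.63). The striatum list had 5 (11.6%, against 1.84%), all also called with the choroid plexus list, and none without nPM female 1, whose striatal markers summed to 392 CPM against 49.4 to 123 in the other samples. The collagen with the largest r in size for that list was Col24a1, at r = -0.65 (rho = -0.20, adjusted p = 0.0666). No collagen reached adjusted p under 0.05 with the CA1, dentate granule cell, interneuron, astrocyte, microglia, oligodendrocyte precursor or thalamus lists, for which the background was 1.16% to 14.6%. The closest to these were Col4a2 (CA1, r = 0.42), Col4a4 (dentate granule cell, r = 0.58), Col6a6 (interneuron, r = -0.56), Col6a4 (astrocyte, r = -0.51), Col6a5 (microglia, r = 0.60), Col27a1 (precursor, r = 0.57) and Col9a1 (thalamus, r = 0.62).

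Chains that join in 1 protein were compared by their ratio per length. Col4a1 and Col4a2, which form the common type IV network of vessels, had a mean ratio of 1.13 with an SD of 0.12 on the log2 scale, and Col4a1 was the higher in 18 of 20 samples. Their genes start 21 bases apart on opposite strands of chromosome 8, and since the strand setting of the counting is not given, reads over the short overlap of these genes may have been shared. Col4a3 and Col4a4, whose starts lie 72 bases apart on chromosome 1, followed each other with r = 0.98 over 20 samples at a ratio of 0.70, although each covered a wide range. For the type VIII chains the ratio was 0.81 and r = 0.96, and for Col1a1 over Col1a2 the ratio was 0.78 and r = 0.92. Type VI differed: Col6a1 exceeded Col6a2 in 20 of 20 samples by 5.34 times with r = 0.68. Col6a3, the long chain of the same filament, ran at 0.44 of Col6a1 with r = -0.39. The 5.34 rests on deposited lengths of 4380 bases for Col6a1 and 8326 for Col6a2, whose median counts were 224.5 and 92. For Col1a1 and Col1a2 the deposited lengths were 6563 and 12426 bases. Whether these lengths fit the transcripts present was not tested. Col9a3 was 5.61 times Col9a2, with r = 0.07. These r describe the 20 samples, which share their libraries and depth.

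Upstream sequence is shown for the pair of type VIII chains and for the bases between Col4a3 and Col4a4, because each pair moved together across samples. It is also shown for Col11a1, which passed the threshold of 0.005 with nPM in males, and for Col25a1, which passed it in the test of the difference between the sexes (both described below). Windows of 250 bases before the start site, from RefSeq on GRCm38.p6, were at hand for 35 of the 44 genes, 38 windows in all, since Col18a1, Col6a2 and Col9a1 had 2 each. Capitals mark matches, on either strand, to the TATA box (searched as TATAAA), to the GC box (searched as GGGCGG) or to the CCAAT box (searched by the letters of its name). No match of one motif overlapped another motif in the windows shown, although neighbouring GC boxes can overlap each other. The windows are Col8a1 at chr16:57754738-57754987 on the minus strand, Col8a2 at chr4:126286544-126286793 on the plus strand, Col11a1 at chr3:114030290-114030539 and Col25a1 at chr3:130180595-130180844, both on the plus strand, and the 71 bases between the starts of Col4a4 and Col4a3 at chr1:82586850-82586920, read on the minus strand towards Col4a4.
Col8a1: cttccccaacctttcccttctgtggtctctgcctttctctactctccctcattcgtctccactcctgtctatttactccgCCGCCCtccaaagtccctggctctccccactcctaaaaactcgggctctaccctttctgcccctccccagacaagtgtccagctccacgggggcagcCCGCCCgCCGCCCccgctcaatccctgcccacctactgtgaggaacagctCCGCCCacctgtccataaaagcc
Col8a2: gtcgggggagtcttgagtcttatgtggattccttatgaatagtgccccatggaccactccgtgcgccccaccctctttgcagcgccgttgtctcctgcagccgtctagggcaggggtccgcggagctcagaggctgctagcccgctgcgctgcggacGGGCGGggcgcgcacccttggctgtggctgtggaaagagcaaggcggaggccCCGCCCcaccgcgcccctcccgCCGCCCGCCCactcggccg
Col11a1: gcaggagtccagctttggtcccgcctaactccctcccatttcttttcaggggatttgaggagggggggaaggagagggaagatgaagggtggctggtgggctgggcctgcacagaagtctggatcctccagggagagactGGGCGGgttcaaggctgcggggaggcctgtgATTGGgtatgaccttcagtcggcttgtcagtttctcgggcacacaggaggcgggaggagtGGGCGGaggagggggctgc
Col25a1: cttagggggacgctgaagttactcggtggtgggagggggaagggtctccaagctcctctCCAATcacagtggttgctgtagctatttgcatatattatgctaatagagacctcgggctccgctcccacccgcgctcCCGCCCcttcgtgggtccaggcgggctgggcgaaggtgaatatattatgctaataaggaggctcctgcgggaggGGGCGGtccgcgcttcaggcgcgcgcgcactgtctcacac
Col4a3 to Col4a4: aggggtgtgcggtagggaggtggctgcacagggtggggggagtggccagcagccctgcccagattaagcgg

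Col8a1 and Col8a2 each held 4 GC boxes, with none of the other motifs. Col11a1 and Col25a1 each held 2 GC boxes and 1 CCAAT box. The short stretch between Col4a3 and Col4a4 held none of the 3. The Col25a1 window lies before the RefSeq start at 130180845, inside the gene as the deposited map draws it (from 130131501). Over the family, 22 of 38 windows (57.9%) held a GC box, against 32.7% of the 32851 windows in the table. A TATA box was found in 5 of 38 windows (13.2%, against 12.4%) and a CCAAT box in 13 of 38 (34.2%, against 33.8%). A match is a match of letters and was not tested as a site.

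The first comparison asked which collagens differed between nPM and control offspring with both sexes together. No collagen reached unadjusted p under 0.005, the study's threshold, where 0.141% of all tested genes did, and 2 of 43 reached p under 0.05, where 2.10% of all genes did. The 2 were Col11a1, a fibrillar chain that sets fibril width, with a log2 fold change of 0.36 ± 0.15 (SE, p = 0.0245, n = 20) and Col2a1 with 0.42 ± 0.18 (p = 0.0309). The smallest adjusted p over all genes was 0.9998 (limma-voom). With edgeR, Col11a1 was at p = 0.0533 (n = 20) and Col2a1 stayed under 0.05. Both went over 0.05 when nPM male 1 was left out (p = 0.0524 for Col11a1 and p = 0.0635 for Col2a1, n = 19). The median log2 fold change was 0.03 over the 43 collagens and -0.01 over all tested genes.

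In males, 1 collagen passed p under 0.005, against 0.207% of all genes, and 6 of 43 (14.0%) reached p under 0.05, against 4.28% of all genes. The gene that passed was Col11a1 (ENSMUSG00000027966.20, chr3:114030540-114220718, plus strand). Its level was 0.818, 0.885, 1.41, 0.893 and 0.913 RPKM in the 5 control males and 1.93, 1.55, 1.55, 1.22 and 1.71 RPKM in the 5 nPM males. Control male 3 lay above the lowest nPM male, and the other 4 control males lay below all nPM males. Col11a1 was 1.61-fold higher in nPM males (log2 0.68 ± 0.15 SE), with p = 0.000773 and adjusted p = 0.963 by limma-voom and p = 0.0159 by the exact permutation test of this gene alone. That test was two-sided with n = 5 and 5, for which the smallest possible p is 0.00794.

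Leaving out each male in turn kept Col11a1 at p from 5.87e-05 to 0.00291, and the other 6 settings at 8.59e-05 to 0.00242. In the females its level was 1.20 to 2.66 RPKM in controls and 1.50 to 2.16 RPKM with nPM, with full overlap and a log2 fold change of 0.05 ± 0.21. Control males thus had the lowest mean of the 4 groups, 0.983 ± 0.240 RPKM against 1.59 to 1.71 RPKM in the others (n = 5 each). Control male 3, at 1.41 RPKM, lay above control females 1 and 2, at 1.20 and 1.25 RPKM. CA3 markers, the list with which Col11a1 correlated most, summed to 48.2 to 80.7 CPM in control males and 46.3 to 74.8 CPM in nPM males, and 1 of the 4 was higher with nPM in males at p under 0.05. Their part in the result was not tested. Without the 7 samples above the gap in choroid plexus markers, which leaves 2 control and 3 nPM males, the log2 fold change was 0.50 and did not reach p under 0.05.

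The other 5 collagens at p under 0.05 in males did not pass 0.005. Col25a1 (log2 0.25 ± 0.10, p = 0.0248), Col4a1 (0.21 ± 0.08, p = 0.0283) and Col6a3 (0.95 ± 0.41, p = 0.0372) had higher means with nPM, with exact permutation p of 0.0556, 0.0556 and 0.0873. Col5a2, which co-assembles with type I collagen, (-0.42 ± 0.17, p = 0.0320) and Col6a1 (-0.84 ± 0.38, p = 0.0497) had lower means, with exact permutation p of 0.0397 and 0.103. Each of the 5 lost p under 0.05 without at least 1 of the 10 males. The highest p was 0.0636 for Col25a1 without nPM male 1, 0.0843 for Col4a1 without control male 4 and 0.1003 for Col6a3 without control male 1. It was 0.0733 for Col5a2 without nPM male 4 and 0.119 for Col6a1 without nPM male 1. Over the 43 collagens the median log2 fold change was -0.16, with 28 below 0, against 0.00 over all genes.

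In females no collagen passed p under 0.005 in the fit of females alone, against 0.0859% of all genes, and 2 of 43 reached p under 0.05, against 2.00% of all genes. Both had lower means with nPM. Col25a1 (ENSMUSG00000058897.17, chr3:130131501-130599877, plus strand) was at 8.19, 6.64, 11.8, 7.43 and 7.97 RPKM in control females and at 6.31, 5.78, 6.80, 6.12 and 4.75 RPKM in nPM females. Only the highest nPM female, at 6.80 RPKM, lay above the lowest control, at 6.64 RPKM. The log2 fold change was -0.47 ± 0.15 (p = 0.00827, adjusted p = 0.99998, limma-voom), and the exact permutation p was 0.0159 (two-sided, n = 5 and 5). DESeq2 and 1 fit of all 4 groups (p = 0.00234, n = 20) put it below 0.005, and without any 1 female it stayed under 0.05.

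Col6a3 (ENSMUSG00000048126.16, chr1:90765923-90843971, minus strand) was at 0.484, 1.24, 2.93, 1.14 and 1.66 RPKM in control females and at 1.83, 0.256, 0.344, 0.223 and 0.571 RPKM in nPM females. Apart from nPM female 1, at 1.83 RPKM, and control female 1, at 0.484 RPKM, the groups were apart. The log2 fold change was -1.33 ± 0.58 (p = 0.0398, exact permutation p = 0.0873 with n = 5 and 5). When 1 female was left out, p stayed under 0.05 for 2 of the 10 females, and it was highest, at 0.0990, without nPM female 4. Over the 43 collagens the median log2 fold change in females was 0.22, with 30 above 0, against -0.01 over all genes. The choroid plexus markers moved the same ways, with a median log2 fold change of 0.91 over their 15 genes in females and -0.34 in males, and 0 of 15 at p under 0.05 in either sex. Their part in the collagen medians was not tested. Without the 7 samples above the gap, 6 of 43 collagens reached p under 0.05 in females, against 2.48% of all genes, all 6 with lower values with nPM.

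The difference of the nPM effects between the sexes (male effect minus female effect) was then tested directly. Col25a1 passed p under 0.005, the only one of 43 collagens to do so, against 0.217% of all genes, and 6 of 43 (14.0%) reached p under 0.05, against 3.79% of all genes. In males Col25a1 was at 7.55, 7.78, 5.65, 8.05 and 7.31 RPKM in controls and 10.1, 9.47, 7.95, 8.91 and 7.89 RPKM with nPM, the direction opposite to that in females. The difference was 0.72 ± 0.19 on the log2 scale (p = 0.00103, adjusted p = 0.987, limma-voom, n = 20). It stayed at p from 0.000463 to 0.00246 when any 1 of the 20 samples was left out. Without the 7 samples high in choroid plexus markers it was 0.74 (p = 0.0115, n = 13). Col25a1 was not called with any marker list; its closest was the endothelial list (r = -0.50, adjusted p = 0.147).

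Col6a3 had the largest difference in log2 fold change of the 6, 2.28 ± 0.77 (p = 0.00738, adjusted p = 0.987, n = 20). In males it was at 0.200, 1.16, 0.439, 1.30 and 0.520 RPKM in controls and 0.977, 1.81, 0.882, 1.05 and 1.69 RPKM with nPM, with overlap between the groups. A figure of the study names Col6a3 in a co-expression module, and Col11a1 among the genes of nPM males, both from these same samples, so their directions here are not independent evidence. Its level followed the choroid plexus score within groups (group means subtracted, r = 0.69, adjusted p = 0.0170), and over the samples as they stood it had r = 0.49 (rho = 0.63, adjusted p = 0.168). The nPM female with the highest Col6a3, nPM female 1, was also the sample with the highest choroid plexus markers. Without the 7 samples above the gap the log2 fold change was 1.94 in males and -2.13 in females, and the difference was 4.07 (p = 0.000939, n = 13). There, 0.672% of all genes had p under 0.005 for the difference. That cut took out 3 control males, 2 nPM males and 2 nPM females. It was drawn on markers that Col6a3 followed within groups, so the smaller p is not separate evidence.

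The other 4 collagens at p under 0.05 for the difference were Col5a2 (-0.68 ± 0.25, p = 0.0126), Col6a1 (-1.38 ± 0.57, p = 0.0264), Col11a1 (0.63 ± 0.27, p = 0.0320) and Col5a3, a fibrillar type V chain (0.90 ± 0.41, p = 0.0409), all with n = 20. Col5a2 kept p under 0.05 with any 1 sample left out, with a highest p of 0.0335. The other 3 lost it, with highest p of 0.0720 for Col6a1 and 0.0633 for Col11a1, both without control female 4, and 0.0871 for Col5a3 without nPM male 1. The fits within males and within females share no samples, but the fit of both sexes and the test of the difference reuse all of them. The values of these comparisons for a gene are therefore not all separate evidence.

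**Figure D3:**
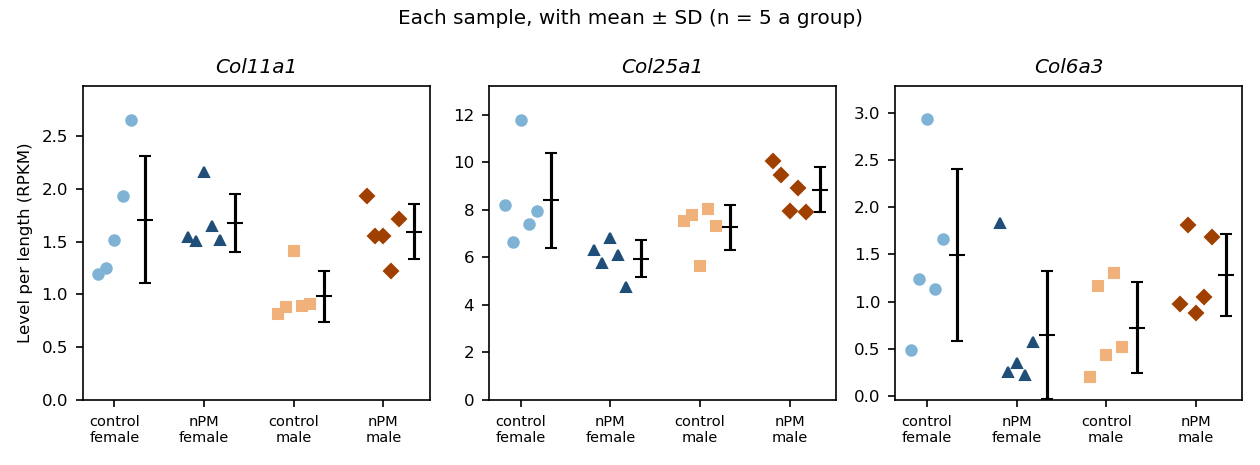
Level of Col11a1, Col25a1 and Col6a3 in each sample of the 4 groups (RPKM, linear axis), with mean ± SD (n = 5 a group). Control males have the lowest mean for Col11a1 (0.983 ± 0.240 RPKM), and the order of the control and nPM means turns between the sexes for Col25a1 and for Col6a3.

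**Figure D4:**
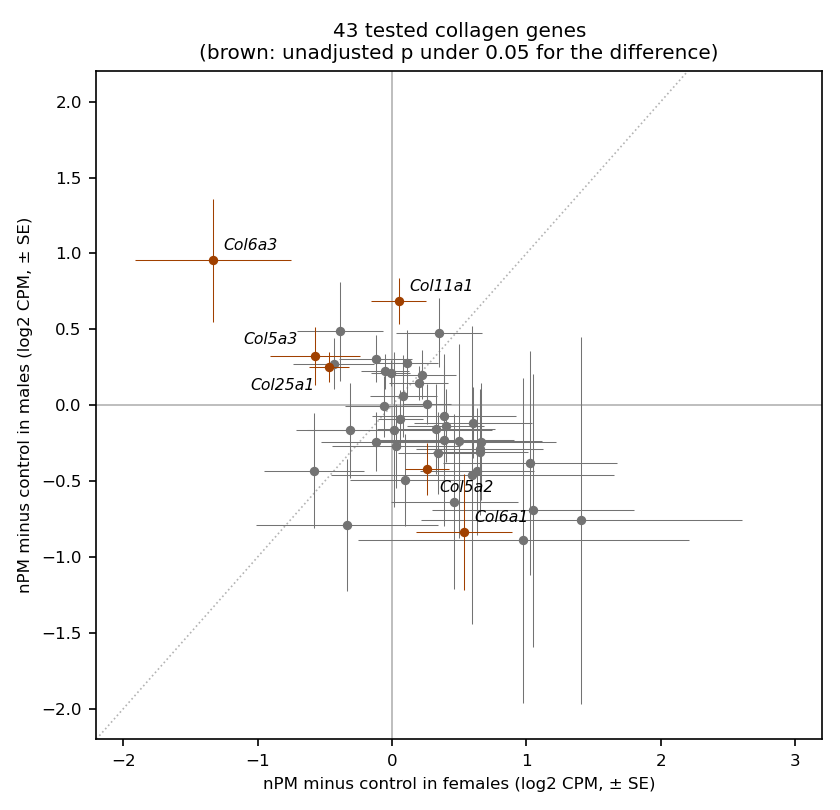
Log2 fold change of the 43 tested collagens with nPM in males (vertical) against females (horizontal), each ± SE, with the line of equal effects dotted. The 6 genes in brown reached unadjusted p under 0.05 for the difference between the sexes; over all 43 genes, 28 lie below 0 in males and 30 above 0 in females, many with wide errors.

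None of the genes that varied most reached p under 0.05 (limma-voom) in any of the 3 nPM comparisons. Their spread differed between groups, and Col8a1 was at 0.213 to 0.860 RPKM in control females and 0.113 to 14.4 RPKM in nPM females. Col8a1 had a log2 fold change of 0.98 ± 1.23 in females and -0.89 ± 1.07 in males, with exact permutation p of 0.627 and 0.579. Col17a1 had 1.41 ± 1.19 and -0.76 ± 1.21, with exact permutation p of 0.421 and 0.690. Each of these 4 SEs was over 1 on the log2 scale. Col4a3, Col4a4, Col8a2 and Col9a3 had p of 0.139 or more in each of the 3 nPM comparisons.

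The comparison of males with females, with both exposures in the fit, concerned sex together with age and with any EdU that went to males alone. Of the 43 collagens, 4 (9.30%) passed p under 0.005, against 31.1% of all genes, and 8 reached p under 0.05, against 48.4%. The same 4 had an adjusted p under 0.05 (limma-voom), where 40.4% of all genes did. All 8 had lower values in males. Col4a1 was at 3.69 ± 0.381 RPKM in control males and 4.35 ± 0.315 in nPM males against 6.17 ± 1.26 and 5.97 ± 0.962 in the corresponding females (n = 5 each). Its log2 difference, male minus female, was -0.54 ± 0.09 (adjusted p = 8.68e-05).

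Col4a2 differed by -0.51 ± 0.11 (adjusted p = 0.00131), from 5.54 ± 1.49 RPKM in control females to 3.28 ± 0.480 in control males. Col20a1 differed by -0.99 ± 0.18 (adjusted p = 0.000278), from 0.791 ± 0.291 RPKM in control females to 0.354 ± 0.0779 in control males. It overlaps 9230112E08Rik, a same-strand transcript with a mean of 429 reads against its own 67.9, so its counting is uncertain. Col7a1, the anchoring fibril collagen of skin, differed by -0.64 ± 0.15 (adjusted p = 0.00252) at levels of 0.0728 to 0.261 RPKM. The other 4 had adjusted p from 0.0645 to 0.0819, and each went over p = 0.05 (n = 19) without at least 1 sample. Col11a1 differed by -0.35 ± 0.15 (p = 0.0279, n = 20), with its levels given above.

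Col5a3 differed by -0.49 ± 0.22 (p = 0.0368, n = 20), from 0.592 ± 0.300 and 0.365 ± 0.118 RPKM in control and nPM females to 0.271 ± 0.0389 and 0.354 ± 0.0949 RPKM in control and nPM males. Col6a4, a type VI chain, differed by -1.10 ± 0.50 (p = 0.0375, n = 20), from 0.385 ± 0.199 and 0.527 ± 0.350 RPKM to 0.217 ± 0.193 and 0.150 ± 0.0352 RPKM in the same order. Col6a6, another chain of type VI, differed by -0.67 ± 0.29 (p = 0.0316, n = 20), from 0.0509 ± 0.0236 and 0.0746 ± 0.0223 RPKM to 0.0393 ± 0.0136 and 0.0372 ± 0.0217 RPKM. For each of these 3, mean ± SD of females and of males overlapped in at least 1 of the exposures.

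Endothelial markers were lower in males as well, with 6 of 12 at adjusted p under 0.05, where 40.4% of all genes were, and all 12 below 0. Their summed level was 181 to 213 CPM in control females and 190 to 275 CPM in nPM females, against 139 to 176 CPM in control males and 141 to 169 CPM in nPM males. The part of these markers in the type IV differences was not tested. Without the 7 samples high in choroid plexus markers, Col4a1 differed by -0.43 (p = 0.0046), Col4a2 by -0.40 (p = 0.028), Col20a1 by -0.93 (p = 0.005) and Col7a1 by -0.63 (p = 0.0198), with n = 13, so that 2 of the 4 stayed under 0.005. Without control male 3, 10 of 43 collagens reached p under 0.05, against 47.8% of all genes, and 4 of the 10 had higher values in males.

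**Figure D5:**
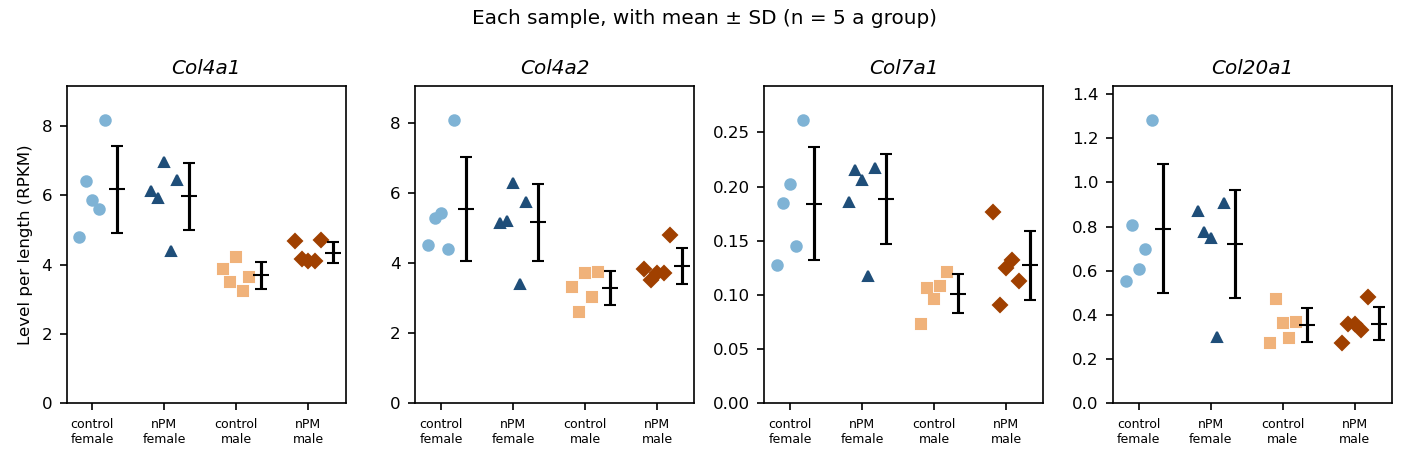
Level of Col4a1, Col4a2, Col7a1 and Col20a1 in each sample of the 4 groups (RPKM, linear axis), with mean ± SD (n = 5 a group). Male means lie below female means in each panel, for Col4a1 at 3.69 and 4.35 RPKM in males against 6.17 and 5.97 RPKM in females.

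Genes that make, cut, link, hold or remove collagen were read from a list of 69 genes in the count table, 65 of them tested. The 65 were 14 prolyl and lysyl hydroxylases and sugar transferases, 5 chaperone and secretion factors, 8 propeptide enzymes, 5 crosslinking lysyl oxidases, 10 degradation genes, 8 receptors and 15 matrix partners. With both sexes together, 1 of 65 passed p under 0.005, against 0.141% of all genes: Tll2, a protease that trims procollagen ends, at log2 0.61 ± 0.19 (p = 0.00481, adjusted p = 0.9998, limma-voom, n = 20). Timp2, an inhibitor of collagen-degrading metalloproteases, (-0.33 ± 0.12, p = 0.0125) and Mmp14, a membrane collagenase, (0.19 ± 0.09, p = 0.04997), with n = 20, were the others at p under 0.05. This made 3 of 65 (4.62%) against 2.10% of all genes. edgeR put Tll2 above 0.005.

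Within a sex no pathway gene passed p under 0.005 in the limma-voom fits. In males 3 of 65 (4.62%) reached p under 0.05, a share near the 4.28% of all genes. They were led by Timp2 (-0.38 ± 0.16) and P3h3 (0.26 ± 0.11), with exact permutation p of 0.0794 and 0.0397. In females 3 of 65 (4.62%) did, against 2.00% of all genes. Loxl1, a crosslinking enzyme, (1.10 ± 0.45) and the collagen receptor chain Itga1 (0.23 ± 0.10) led, with exact permutation p of 0.0635 and 0.0238. For the difference between the sexes 3 of 65 (4.62%), all receptors, reached p under 0.05, a share near the 3.79% of all genes. Itga1 (-0.38 ± 0.14, p = 0.0126) and Itgb1 (-0.34 ± 0.13, p = 0.0129), which join in 1 integrin, led (n = 20).

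Between males and females, 18 of 65 pathway genes (27.7%) had an adjusted p under 0.05, against 40.4% of all genes, 13 lower and 5 higher in males. Those lower included P4ha2, a prolyl hydroxylase, (-0.45 ± 0.07), the laminin chain Lamc1 (-0.30 ± 0.05), Agrn (-0.39 ± 0.08) and fibronectin Fn1 (-0.61 ± 0.12). Those higher included Sec23a, a coat protein needed for procollagen export, (0.32 ± 0.06) and Timp2 (0.46 ± 0.12). The 5 matrix partners called were all lower in males, and 0 of the 5 lysyl oxidases were called, with their smallest unadjusted p at 0.0915.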

How the data were processed

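The hippocampal RNA of 20 mice, 5 in each of 4 groups, was sequenced. Per the labels and methods, the authors trimmed reads with Trimmomatic, used HISAT2 for alignment to mm10 and featureCounts 1.5.0-p3 for counting over Gencode M11 genes, so the deposited values were raw read counts. The strand and multimapping settings are not given in the sources used here, and counts of overlapping genes are therefore uncertain. A deposited column of mean RPKM, made by the authors, was not used for any result, and no deposited sample column was left unmapped (0 files). Groups came from the labels.

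Each sample held 19092067 to 38663408 counts, and 3 counts, the floor used here, were worth 0.0776 to 0.157 CPM. RPKM was computed from the counts, the total and the deposited gene length. Genes were filtered with filterByExpr (minimum count 10, minimum total 15), scaled by TMM in edgeR 4.0.16 and tested with limma-voom (limma 3.58.1, R 4.3.3). The comparisons were nPM against control in both sexes (sex as covariate), in each sex, the difference of these effects, and males against females (exposure as covariate). The study's unadjusted threshold of 0.005 was used, beside 0.05 and Benjamini-Hochberg adjustment over all genes. Single genes within a sex also had two-sided exact permutation tests over 252 groupings. Marker scores were mean standardized log2 CPM, and correlations had 100000 permutations (Python 3.11.15, numpy 2.4.6, scipy 1.17.1). The test scripts were tested on simulated data. Alternatives were edgeR's quasi-likelihood test, DESeq2 1.42.0, RLE scaling, no filter, a replicate block, 1 fit of the 4 groups and leaving out each sample. Leaving out the 7 samples high in choroid plexus markers was chosen after seeing the data.

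The collagen genes, the marker and pathway lists and the tests were chosen with earlier results of these data known. Full values were given for Col6a3, Col11a1 and Col25a1, for collagens under p = 0.05 in any comparison, for the 8 with the highest level, the 5 largest and 2 smallest within-group SDs, and the collagen with the largest correlation for each list. Pathway genes were named when they passed 0.005, or else the 2 with the smallest p. Mmp14 and some genes of the comparison by sex were named beyond this rule, after their values were seen.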

Additional observations from a re-analysis of the deposited data

Results flagged for a closer look

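In 11 of the 172 groups of 5 samples examined (6.4%), 1 sample's gap to its nearest neighbour, as a share of the group's range in log2 CPM, was over Dixon's value of 0.71, and chance alone gives about 1 in 20 groups. Among control males, sample 3 was the highest for Col11a1 (0.819) and the lowest for Col25a1 (0.769), and sample 1 the highest for Col5a2 (0.715). Among control females, sample 1 was the highest for Col1a2 (0.725). Among nPM females, sample 4 was the lowest for Col20a1 (0.863), sample 3 the lowest for Col23a1 (0.727) and sample 5 the highest for Col6a2 (0.796). Among nPM males, sample 4 was the highest for Col6a2 (0.729) and the lowest for Col4a6 (0.818), sample 1 the highest for Col16a1 (0.791) and sample 5 the highest for Col4a2 (0.737).

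The nPM effect on Col25a1 differed between the sexes by 0.72 on the log2 scale in the test of the difference itself (unadjusted p = 0.00103, adjusted p = 0.987, limma-voom).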

How the results depend on the processing

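Of the values of single genes under the alternatives, 542 kept direction and side of the threshold, 109 lost p under the threshold, 2 gained it and 20 changed sign. Of the counts, 634 stayed within 1.5 times and 122 did not. The causes were not tested.

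With both sexes, 1 collagen had p under 0.05 by edgeR and 1 without the 7 samples high in choroid plexus markers. These stood against 2.1% and 1.28% of all genes, and 0 pathway genes passed 0.005 in either setting. In males, 1 fit of the 4 groups gave 2 collagens under 0.05 (against 3.83% of all genes). In females, DESeq2 and that fit each gave 1 collagen under 0.005 (against 0.279% and 0.121% of all genes). Under 0.05 in females, edgeR gave 4 (against 3.02%), DESeq2 6 (against 2.9%) and leaving out the 7 samples 6 (against 2.48%). For the difference between the sexes, edgeR gave 10 under 0.05 (against 4.89% of all genes) and DESeq2 10 (against 4.86%). Leaving out the 7 samples gave 11 under 0.05 (against 8.02%), with 2 under 0.005 (against 0.672%). Between males and females, leaving out the 7 samples gave 2 collagens and 9 pathway genes under 0.005 (against 14.9% of all genes). There, DESeq2 gave 7 collagens at adjusted p under 0.05, where 8361 genes of the whole table were. Col11a1 in females was at -0.0127 by edgeR and -0.000654 by DESeq2, and Col6a3 between males and females at -0.17 without the 7 samples. Without the filter on low counts, the median of all genes between males and females shifted by -0.12 (log2).

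Same-numbered samples of different groups had a median correlation of deviations of -0.0065 (30 pairs, 10 over 0.1). Other pairs had a median of 0.0017 (120 pairs, 33 over 0.1). The replicate numbers thus showed no pairing, although these medians cannot exclude that some samples shared a litter or a batch. With the replicate block, 1 collagen (Col25a1) passed 0.005 in females, against 0.106% of all genes.

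Leaving out each sample in turn gave, with both sexes, 0 to 1 collagens under 0.005, 0 to 3 under 0.05 and 0 to 2 pathway genes under 0.005. It gave 2 to 6 collagens under 0.05 and 0 to 1 pathway genes under 0.005 in males, and 0 to 1 collagens under 0.005 and 1 to 3 under 0.05 in females. For the difference between the sexes it gave 1 to 2 collagens under 0.005, 3 to 8 under 0.05 and 0 to 1 pathway genes, and between males and females 5 to 10 collagens under 0.05. In the same fits, 1.71% to 3.75% of all genes were under 0.05 with both sexes. The share was 2.83% to 5.21% in males, 1.35% to 4.0% in females and 2.84% to 5.2% for the difference. Between males and females it was 45.3% to 49.6%. Under 0.005, the nPM comparisons had shares from 0.0455% to 0.424%. The log2 fold change ran from -0.23 to 0.19 for Col6a3 with both sexes, from -0.0741 to 0.20 for Col11a1 in females and from -0.0578 to 0.38 for Col6a3 between males and females. Correlated collagens numbered 1 to 3 for the endothelial list, 0 to 7 for mural, 0 to 3 for oligodendrocyte, 0 to 1 each for astrocyte, microglia and thalamus, 5 to 11 for CA3, 0 to 2 for interneuron and 0 to 6 for striatum.

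Without the 2 samples farthest from the median score, 19 relations passed, with 6 for fibroblast, 1 for CA3, 1 for neocortex, 2 for thalamus and 0 for mural, oligodendrocyte and striatum. With group means subtracted, 6 passed for endothelial, 7 for mural, 8 for striatum, 2 for dentate granule cell and 1 each for microglia, interneuron and thalamus. RLE scaling left 1 for mural. The share of other genes was not counted under these correlation settings.

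Collagens with few reads, such as Col10a1, Col17a1 and Col6a6, are limited by depth, and with 5 samples a group the spread between samples limits the rest.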
